A study of Mus musculus with 4 samples.

Results

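Chemokines and their receptors were followed in RAW264.7 cells, an established mouse macrophage line, after 48 h with a hydrogel. The members were all gene symbols made of a chemokine or receptor stem (Ccl, Cxcl, Cx3cl, Xcl, Ccr, Cxcr, Cx3cr, Xcr or Ackr), a number and at most a lower-case suffix. This gave 61 of 40213 symbols, of which 39 are ligands and 22 are receptors. The libraries labelled CuNZ@Gel (n = 2) came from cells cultured with the hydrogel that carries CuNZ, an abbreviation the labels do not spell out, and the libraries labelled Gel (n = 2) are read from their titles as the hydrogel alone. The treatment text is the same for all 4 libraries and names only CuNZ@Gel. No library without hydrogel was analysed here. The series title speaks of a nanozyme hydrogel and diabetic wounds, and the single comparison asks how CuNZ@Gel differs from Gel. The labels do not say whether the replicates were separate cultures, and the spread behind each p-value may therefore be purely technical. RAW264.7 is 1 transformed line, and in a bulk sample fewer expressing cells and less RNA per cell cannot be told apart.

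Chemokines are small secreted proteins that set up gradients along which leukocytes migrate. They act through receptors coupled to inhibitory G proteins, whereas the atypical receptors (Ackr) take up chemokines without that coupling. Macrophages are a main source of the CC chemokines that call in monocytes and of CXC chemokines that call in neutrophils, and many of these genes are known targets of NF-kB.

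Levels are given in scaled CPM, which is counts scaled to library size (CPM) and divided by a further factor that the depositors applied to each library. It is not divided by gene length. Recovered library totals ranged from 13720000 to 14880000 reads, rounded. A gene with no reads could at this depth still have up to 3 reads with 95% confidence, which corresponds to 0.189 and 0.190 scaled CPM in the CuNZ@Gel libraries and 0.217 and 0.234 in the Gel libraries. Such limits, and the intervals of read ratios below, cover counting error only. Of 9 macrophage markers, 8 were expressed above the filter described next. By the test given below, 5 of them were higher and 2 lower in CuNZ@Gel, against 32.2% and 34.8% of all tested genes. Lyz2 had 6000 and 5776 scaled CPM in CuNZ@Gel against 3004 and 3155 in Gel. Itgam (log2 change 1.89) and Adgre1 (0.83) were also higher, while Fcgr1 (-0.82) and Cd68 (-0.23) were lower, and Mertk had only 14 and 4 reads in CuNZ@Gel against 3 and 3 in Gel. Among markers of neutrophils, T cells, dendritic cells, fibroblasts, endothelium and epithelium, only Lck passed that filter, at 3.28 and 2.54 against 5.51 and 5.61 scaled CPM. The summed levels of the other cell types' lists ranged from 0.126 to 4.16 scaled CPM in CuNZ@Gel and from 0 to 6.0 in Gel. The endothelial sum was higher in CuNZ@Gel (0.630 to 1.02 scaled CPM, against 0 to 0.0777 in Gel). The neutrophil sum was 0.441 to 0.951 scaled CPM in CuNZ@Gel and 0.156 to 0.435 in Gel. The neutrophil ranges nearly met, and Elane had 1 and 2 reads in CuNZ@Gel against 3 and 2 in Gel, so no direction is read from that sum. The T cell sum, most of it Lck, was lower in CuNZ@Gel. Cd3d went the other way, with 2 and 7 reads in CuNZ@Gel and 0 and 0 in Gel. The epithelial sum was lower in CuNZ@Gel. The fibroblast sum was 0.126 to 0.190 scaled CPM in CuNZ@Gel and 0.218 to 0.311 in Gel. It lay around the limit for a gene with no reads, so no direction is read from it. S100a9, Mpo, Camp, Cd3e and Cd3g were listed at 0 throughout. The part of these other cell types in the chemokine results was not tested.

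Of the 61 members, 16 reached 1 scaled CPM or more in 2 or more libraries and were tested. A further 23 had reads below that filter, and 22 were listed at 0 in all 4 libraries. The tested ligands were the CC chemokines Ccl2, Ccl3, Ccl4, Ccl5, Ccl6, Ccl9 and Ccl25 and the CXC chemokines Cxcl2, Cxcl10, Cxcl14 and Cxcl16. The tested receptors were Ccr1, Ccr2, Cxcr3, Cxcr4 and Cx3cr1. Among the ligands, 3 genes carried nearly all reads: Ccl9, Ccl3 and Ccl4 together took 96.1% ± 0.248 of the reads on ligands in CuNZ@Gel and 93.7% ± 0.128 in Gel (SD, n = 2). Among the receptors, Cx3cr1 alone took 77.2% ± 0.588 of the reads in CuNZ@Gel and 84.2% ± 0.770 in Gel. These shares count reads, to which longer transcripts contribute more.

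**Figure D1:**
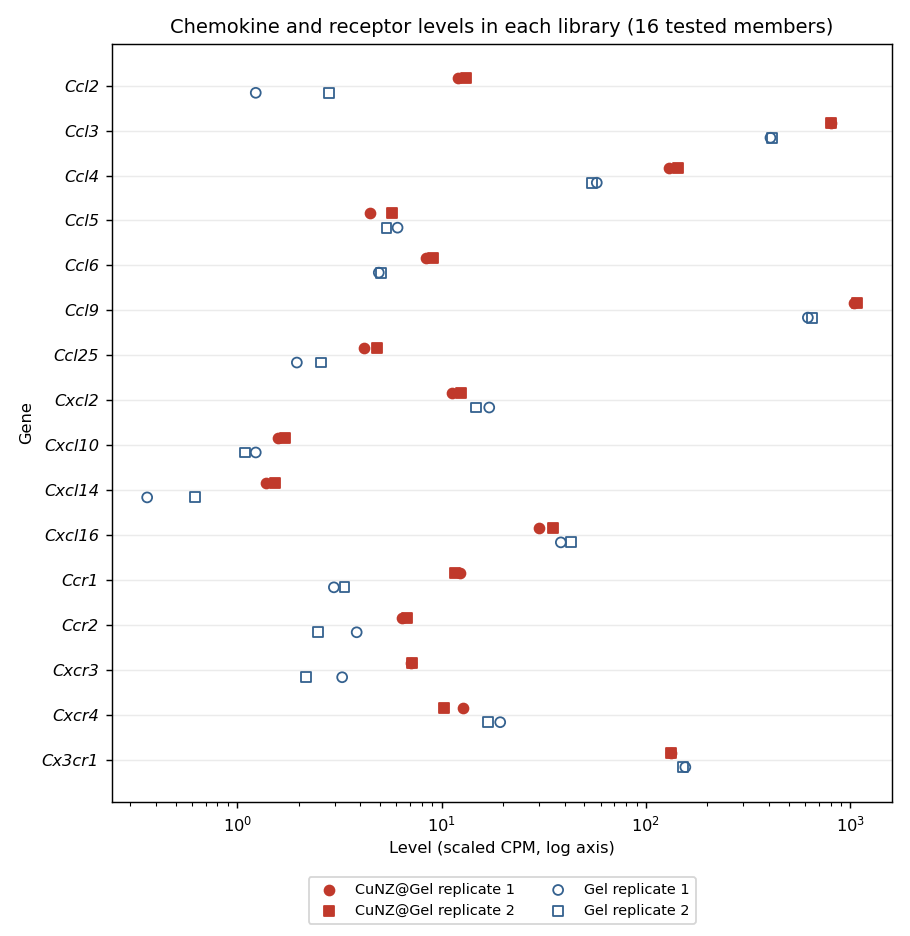
Level of each of the 16 tested members in each library, in scaled CPM on a log axis, with CuNZ@Gel libraries drawn as filled symbols above the open symbols of the Gel libraries. Ccl9 and Ccl3 are the highest in all 4 libraries, and the symbols of the groups overlap along the axis for Ccl5 alone.

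In CuNZ@Gel, 10 of the 16 tested members rose and 4 fell (limma with Benjamini-Hochberg adjustment over 11588 tested genes, threshold 0.05). Across all tested genes 67.1% were called, 32.2% as higher and 34.8% as lower, so that a call in itself was common in this comparison. The median log2 change of the 16 members was 0.73, against -0.03 over all tested genes. Ligands rose in 7 of 11 cases and fell in 2, and receptors rose in 3 of 5 cases and fell in 2. Ccl5 and Cxcl10 did not pass the test. For 15 of the 16 members the groups had no overlap, which held for 83.2% of all tested genes. Cxcl14 passed the filter only through CuNZ@Gel, where it was high, so it had to differ and is no support for the direction of the rest. With libraries scaled by total reads only, 10 members were higher and 1 lower, against 43.3% and 24.8% of all genes. That scaling moved the median log2 change of all tested genes up by 0.18, and raised genes then made up 63.6% of all calls in place of 48.1%. Against a minimum fold of 1.5, 6 members passed as higher and 0 as lower, against 8.76% and 8.11% of all genes; the 6 were Ccl2, Ccl3, Ccl4, Ccl9, Ccr1 and Cxcr3.

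**Figure D2:**
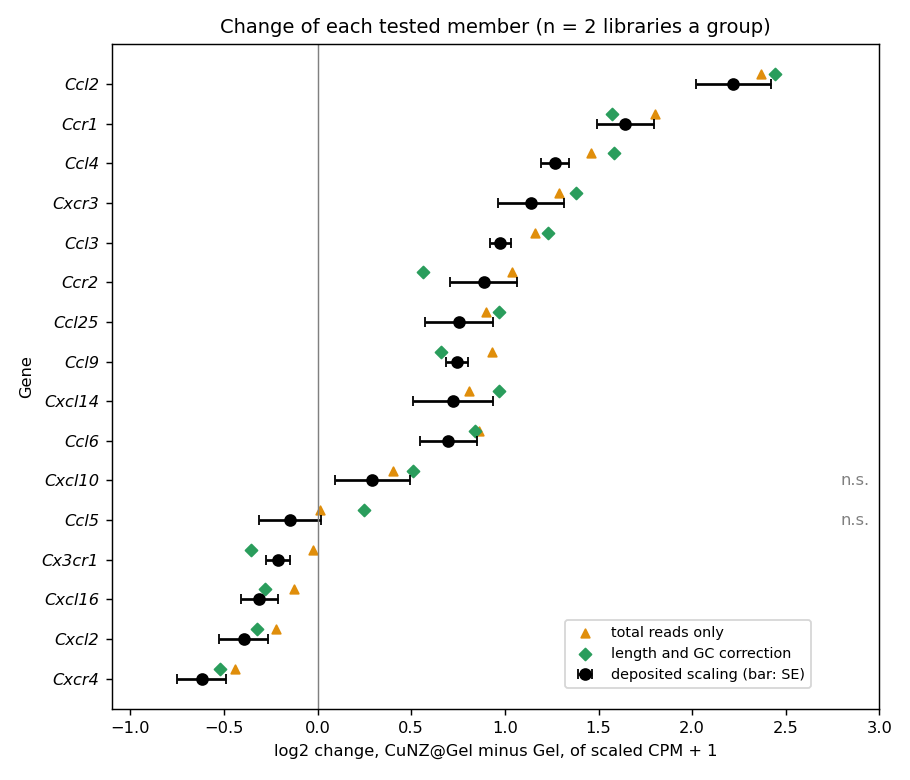
log2 change of scaled CPM + 1 (CuNZ@Gel minus Gel) of each tested member, with its standard error as a bar, and the change with libraries scaled by total reads only (triangles) or corrected for length and GC content (diamonds); n.s. marks an adjusted p of 0.05 or more with the deposited scaling. Ccl2 has the largest change (2.22) and Cxcr4 the lowest (-0.62), and all 3 settings put each member but Ccl5 on the same side of 0.

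Of the 6 tested inflammatory CC chemokines, 5 were higher and none lower, which is 5 of the 10 members that rose. Across all tested genes 32.2% were called higher and 34.8% lower. Ccl3, the macrophage inflammatory protein MIP-1 alpha that attracts monocytes and T cells, had 805 and 808 scaled CPM in the CuNZ@Gel libraries, against 407 and 413 in the Gel libraries. The libraries of a group lay close together and the groups far apart. The fold of the means was 1.97 and the log2 change 0.975 ± 0.06 (SE, adjusted p = 4.06e-12). Ccl4, its close relative MIP-1 beta, which attracts monocytes and T cells too, had 129 and 143 scaled CPM with CuNZ@Gel and 57.4 and 54.4 with Gel. It changed more, by 2.44-fold (log2 change 1.27 ± 0.07, adjusted p = 4.06e-12). The ratio of Ccl4 reads to Ccl3 reads, which no scaling of libraries can alter, was 0.161 and 0.177 in CuNZ@Gel against 0.141 and 0.132 in Gel. It was higher in both CuNZ@Gel libraries, but an exact two-sided permutation test of 2 against 2 libraries cannot go below p = 0.333.

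Ccl9, which in mice attracts cells through Ccr1, had the highest level of all members in scaled CPM, at 1045 and 1078 in CuNZ@Gel against 620 and 648 in Gel (log2 change 0.74 ± 0.06, adjusted p = 4.63e-10). It thus rose less in proportion than Ccl3, and the ratio of Ccl9 reads to Ccl3 reads was 1.30 and 1.33 in CuNZ@Gel, against 1.52 and 1.57 in Gel. Ccl6, a related mouse CC chemokine with no clear human counterpart, had 8.38 and 9.08 scaled CPM in CuNZ@Gel and 4.93 and 5.06 in Gel. Its log2 change of 0.70 ± 0.15 (adjusted p = 3.61e-04) was close to that of Ccl9. Ccl6 stood at under 1 read for every 100 reads of Ccl9 in all 4 libraries, with 0.802 and 0.842 in CuNZ@Gel against 0.795 and 0.780 in Gel.

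Ccl2, the monocyte chemoattractant MCP-1, showed the largest change of any tested member. It had 12.0 and 13.2 scaled CPM in CuNZ@Gel, against 1.23 and 2.80 in Gel, a fold of the means of 6.24. Both Gel libraries were low, but they differed from each other by more than the CuNZ@Gel libraries did. On the log2 scale Ccl2 changed by 2.22 ± 0.20 (adjusted p = 3.41e-09), which put it at percentile 99.1 of the log2 changes of all tested genes. With any 1 library left out its change ranged from 1.84 to 2.60 and remained past the threshold. Ccl5 (RANTES), a ligand of CCR1 and CCR3, did not follow the other CC chemokines. It had 4.48 and 5.71 scaled CPM in CuNZ@Gel and 6.09 and 5.37 in Gel, and the groups overlapped (log2 change -0.15 ± 0.17, adjusted p = 0.438). Its change had the other sign, and still missed the threshold, with libraries scaled by total reads only (0.01) and once corrected for the length and GC content of transcripts (0.25).

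Outside the inflammatory class, Ccl25, best known from thymus and small intestine, where it guides cells that carry Ccr9, had 4.16 and 4.82 scaled CPM in CuNZ@Gel against 1.96 and 2.57 in Gel (log2 change 0.75 ± 0.18, adjusted p = 0.00102). Its CuNZ@Gel reads numbered 142 in all, against 60 in Gel.

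Most of the tested CC chemokine genes are neighbours in the genome. In the RefSeq gene order of mouse chromosome 11, Ccl5, Ccl9, Ccl6, Ccl3 and Ccl4 follow each other with no other protein-coding gene in between. All 5 were tested and all but Ccl5, at the end of the run, were called higher, as were 32.2% of all tested genes. A second run on the same chromosome holds Ccl2, Ccl7, Ccl11, Ccl12, Ccl8 and Ccl1, again with no other coding gene in between, and there only Ccl2 was tested. Ccl7, the neighbour of Ccl2 and like it a monocyte attractant, had 1 read in CuNZ@Gel and 1 in Gel, and the other 4 were listed at 0 in every library.

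**Figure D3:**
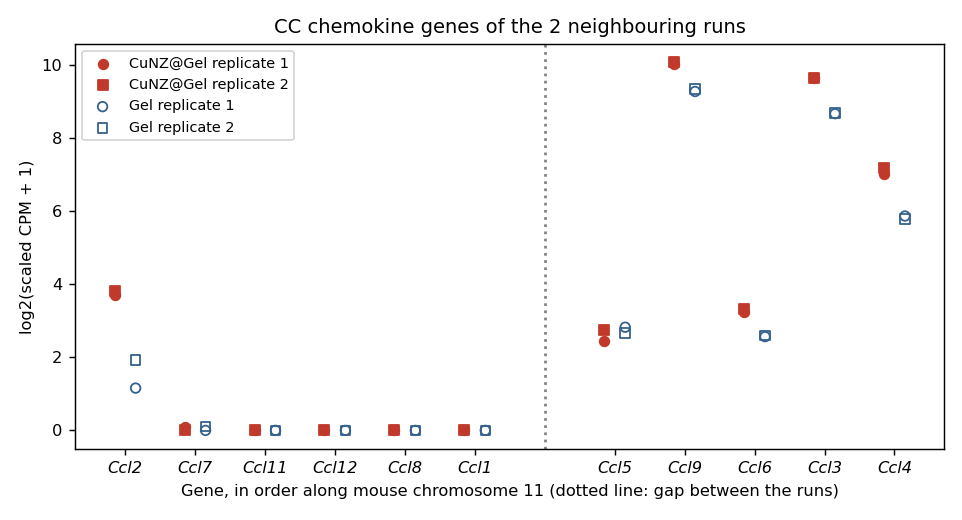
Levels, as log2(scaled CPM + 1), of the 11 CC chemokine genes of 2 runs in their order along mouse chromosome 11, with filled symbols for CuNZ@Gel left of open symbols for Gel. In the left run only Ccl2 stands clear of 0, and in the right run all 5 genes do, with Ccl5 as the gene whose groups overlap.

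Of the 4 tested CXC chemokines Cxcl2 and Cxcl16 fell, Cxcl10 was not called, and Cxcl14 was higher but entered the test only through CuNZ@Gel; 32.2% of all tested genes were called higher and 34.8% lower. Cxcl2 (MIP-2), a neutrophil attractant, had 11.3 and 12.4 scaled CPM in CuNZ@Gel and 17.1 and 14.7 in Gel. Both CuNZ@Gel libraries were below both Gel libraries, and the gene fell by 0.40 on the log2 scale (SE 0.13, adjusted p = 0.00994). Its relatives Cxcl1, Cxcl3, Cxcl5 and Cxcl15, of the same run on chromosome 5, were listed at 0 in all 4 libraries. Cxcl16, a chemokine anchored in the membrane that also binds oxidized lipoprotein, had 30.1 and 35.2 scaled CPM in CuNZ@Gel against 38.3 and 43.0 in Gel. It fell by 0.31 (SE 0.10, adjusted p = 0.00863). Both falls were small and depended on the settings. With libraries scaled by total reads only, the changes were -0.22 for Cxcl2 and -0.13 for Cxcl16, and neither passed (adjusted p = 0.135 and 0.264). Without CuNZ@Gel replicate 1 neither passed (-0.33 for Cxcl2 and -0.20 for Cxcl16). Cxcl2 was also not called without Gel replicate 1 (-0.29), nor Cxcl16 without Gel replicate 2 (-0.23).

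Cxcl10, an interferon-induced attractant of T cells, had 1.58 and 1.71 scaled CPM in CuNZ@Gel and 1.23 and 1.09 in Gel. The groups did not overlap, but the log2 change of 0.29 ± 0.20 missed the threshold (adjusted p = 0.204). Once corrected for length and GC content it passed at 0.51 (adjusted p = 0.0292). Cxcl14, a chemokine made by many epithelia, had 1.39 and 1.52 scaled CPM in CuNZ@Gel against 0.362 and 0.622 in Gel, on 46 and 13 reads (log2 change 0.72 ± 0.21, adjusted p = 0.00538). With a pseudocount of 0.1 its log2 change was 1.43, and with limma-voom 1.54.

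Sequence upstream of 4 genes is shown to set members that rose beside members that fell. Ccr1 and Cxcr4 had the largest rise and the largest fall among members with a promoter entry, and Ccl9 and Cxcl2, which rose and fell, were added after their motif matches were seen. Each stretch of 120 bases ends just before the transcription start of the RefSeq entry (build GRCm38.p6, which differs from the build of the files) and reads 5′ to 3′ along the gene's strand. Capitals mark matches to the kB consensus, the motif bound by NF-kB, on either strand.
Ccr1 promoter: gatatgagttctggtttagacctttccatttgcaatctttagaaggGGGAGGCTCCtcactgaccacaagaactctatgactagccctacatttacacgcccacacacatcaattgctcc
Cxcr4 promoter: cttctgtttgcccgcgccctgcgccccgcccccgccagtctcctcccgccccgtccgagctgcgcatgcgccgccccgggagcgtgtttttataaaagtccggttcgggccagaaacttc
Ccl9 promoter: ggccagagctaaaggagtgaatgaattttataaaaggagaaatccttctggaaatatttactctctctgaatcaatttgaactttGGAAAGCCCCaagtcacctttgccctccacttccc
Cxcl2 promoter: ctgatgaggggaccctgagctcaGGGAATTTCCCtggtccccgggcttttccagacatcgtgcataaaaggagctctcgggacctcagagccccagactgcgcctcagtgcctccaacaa
The stretches come from chr9:123968693-123968812 (minus strand), chr1:128592300-128592419 (minus strand), chr11:83578637-83578756 (minus strand) and chr5:90903779-90903898 (plus strand). Matching by symbol gave a promoter for 12 of the 16 tested members. In the 250 bases before the start, Cxcl10 held 3 matches and Cxcl2 held 2, those of Cxcl2 overlapping and running together in the stretch shown, while Ccl9 and Ccr1 held 1 each. The other 8 members held none, and 7.25% of 32851 RefSeq promoter windows of the same length held at least 1. The AP-1 motif TGANTCA was found for Ccl9 and Cxcl10 (6.75% of all windows), the antioxidant response element TGACNNNGC, which can overlap it, for Cxcl10 (10.16%), and the C/EBP motif TTGCNNAA for no tested member (9.56%), all on both strands. In these windows the matches to the kB consensus lay before 2 genes that rose (Ccl9, Ccr1), 1 that fell (Cxcl2) and 1 that was not called (Cxcl10).

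Receptors moved in both directions, 3 higher and 2 lower, where 32.2% of all tested genes were called higher and 34.8% lower. Ccr1, the receptor for Ccl3, Ccl5, Ccl6 and Ccl9, had 12.4 and 11.6 scaled CPM in CuNZ@Gel against 2.97 and 3.35 in Gel. This 3.79-fold difference (log2 change 1.64 ± 0.15, adjusted p = 6.35e-09) was the second largest of the tested members on the log2 scale. Its share of receptor reads was 6.99% ± 0.279 in CuNZ@Gel and 1.74% ± 0.198 in Gel (SD, n = 2). Ccr2, the receptor of Ccl2 that brings monocytes out of the marrow, had 6.43 and 6.79 scaled CPM in CuNZ@Gel and 3.84 and 2.49 in Gel (log2 change 0.89 ± 0.18, adjusted p = 1.79e-04). Corrected for length and GC content, its change was 0.56 (adjusted p = 0.0144). Cxcr3, the receptor of the interferon-induced chemokines Cxcl9, Cxcl10 and Cxcl11, had 7.06 and 7.17 scaled CPM with CuNZ@Gel, against 3.26 and 2.18 with Gel (log2 change 1.14 ± 0.18, adjusted p = 8.42e-06). For these receptors the CuNZ@Gel libraries lay close together and above both Gel libraries.

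Cxcr4, the receptor of Cxcl12 that holds leukocytes in the marrow, moved the other way. It had 12.7 and 10.3 scaled CPM in CuNZ@Gel against 19.4 and 16.9 in Gel, and fell by 0.62 (SE 0.13, adjusted p = 3.06e-04). It remained lower and past the threshold with libraries scaled by total reads only (-0.44). Cx3cr1, the fractalkine receptor of resident macrophages and patrolling monocytes, was the most abundant receptor, with 132 and 133 scaled CPM in CuNZ@Gel and 156 and 151 in Gel. It fell by 0.21 (SE 0.06, adjusted p = 0.00585). Its call was lost with libraries scaled by total reads only (-0.03, adjusted p = 0.732) and without Gel replicate 1 (-0.19, adjusted p = 0.0771), and the change was larger when corrected for length and GC content (-0.36).

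Per length, Ccl3 exceeded the other members. Divided by the longest coding transcript of each gene in GENCODE vM21, its level was 1050 and 1055 scaled CPM per kb in CuNZ@Gel and 531 and 539 in Gel. Ccl9 followed at 348 and 359 per kb in CuNZ@Gel against 206 and 216 in Gel, and Ccl4 at 196 and 217 against 87.0 and 82.4. Cx3cr1 came next, at 29.4 and 29.5 per kb in CuNZ@Gel and 34.7 and 33.7 in Gel. These 4 genes had the same order in all 4 libraries, with gaps larger than the spread between libraries. Below them the order differed between the groups. In CuNZ@Gel Ccl2 took the fifth place (14.7 and 16.2 per kb), ahead of Cxcl16 (11.1 and 13.1), whereas in Gel Cxcl16 took it (14.2 and 15.9) and Ccl2 (1.51 and 3.45) had a spread that took in Ccl25 (1.85 and 2.43) and reached Ccl6 (3.42 and 3.51). The levels of Cxcl2, Cxcr4 and Ccl6 in CuNZ@Gel, from 5.70 to 7.02 per kb, could not be separated by their spread, nor could those of Ccl25, Ccr1 and Cxcr3, from 3.93 to 4.56. If the cells use a shorter transcript, as is possible for Ccl9 with its 3006 nt model, the per-length level is higher than given.

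Known ligands and receptors were expressed together in part. Of 38 textbook pairs, 6 had both partners tested: Ccl2 with Ccr2, Ccl3, Ccl5, Ccl6 and Ccl9 with Ccr1, and Cxcl10 with Cxcr3. Ligand and receptor both rose in 4 of these pairs, the exceptions being those of Ccl5 and Cxcl10, but 3 of the 4 share the receptor Ccr1 and are not separate instances, and 32.2% of all tested genes were called higher. In 7 pairs only the ligand was tested, among them Cxcl2 with Cxcr2, Cxcl16 with Cxcr6 and Ccl25 with Ccr9. In 7 others only the receptor was tested, among them Cxcl12 with Cxcr4 and Cx3cl1 with Cx3cr1. Cxcl12 had a single read over the 4 libraries, in Gel, and Cx3cl1 a single read, in CuNZ@Gel.

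**Figure D4:**
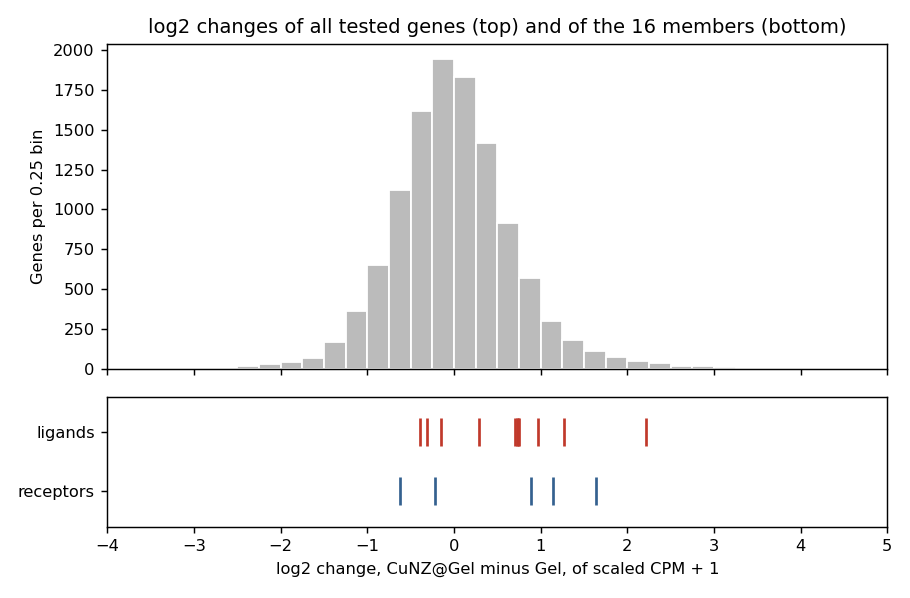
Number of tested genes (of 11588) in each bin, 0.25 wide, of log2 change, CuNZ@Gel minus Gel, above marks for the 11 tested ligands and the 5 tested receptors. The median of the 16 members is 0.73 and that of all tested genes -0.03, and members lie on both sides of 0.

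Members below the filter were compared by their recovered reads. Ccl22, a macrophage chemokine for cells with Ccr4, had 18 and 14 reads in the CuNZ@Gel libraries and 1 and 4 in the Gel libraries, a ratio of 5.39 after scaling with an exact 95% counting interval from 2.09 to 17.7. Cxcl11, a ligand of Cxcr3, had 15 and 8 reads against 2 and 1, a ratio of 6.46 with an interval from 1.95 to 33.6. Both were past the threshold as higher when no filter was applied (limma adjusted p = 0.0187 for Ccl22 and 0.0351 for Cxcl11). Without the filter 13 members were higher and 2 lower, where 18.1% and 17.3% of 19581 genes were, 35.4% in all.

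Reads of the other receptors were few. Cxcr5 had 7 and 6 reads in CuNZ@Gel and 3 and 14 in Gel, Xcr1 had 4 and 6 against 2 and 6, and Ccr6 had 4 and 1 against 3 and 6. Cxcr2 had 1 and 6 reads in CuNZ@Gel and 2 and 1 in Gel. Ccr10 and the atypical receptor Ackr3, which removes Cxcl12, had reads mainly in 1 library, with 6 for Ccr10 and 4 for Ackr3 in CuNZ@Gel replicate 2 and 0 in CuNZ@Gel replicate 1, against 1 and 0 over the Gel libraries. The other 14 members with reads had at most 2 in any library: Ccl7, Ccl24, Cxcl9, Cxcl12, Cxcl17, Cx3cl1, Ccr3, Ccr4, Ccr7, Ccr9, Cxcr1, Cxcr6, Ackr1 and Ackr2. No difference was detectable for them at this depth.

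**Figure D5:**
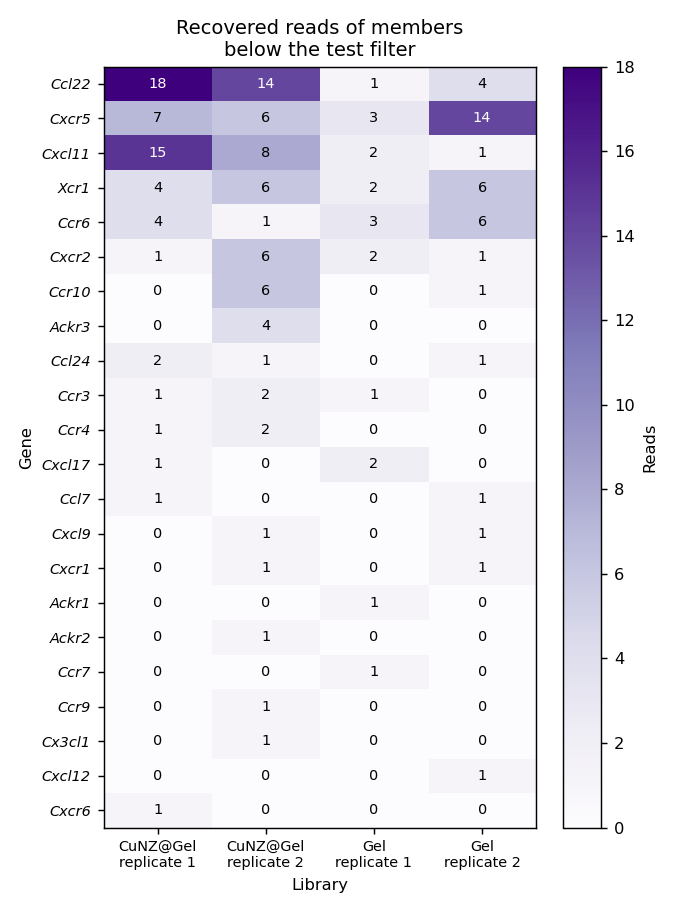
Recovered reads of 22 of the members below the test filter in each library, with CuNZ@Gel libraries left of Gel libraries and darker cells for more reads. Ccl22 and Cxcl11 have more reads in both CuNZ@Gel libraries than in either Gel library, and every other member but Cxcr5 has at most 6 reads in a library.

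The 22 members listed at 0 in every library were 20 ligands and the receptors Ccr8 and Ackr4. The ligands were Ccl1, Ccl8, Ccl11, Ccl12, Ccl17, Ccl19, Ccl20, Ccl21a, Ccl21b, Ccl21d, Ccl26, Ccl27a, Ccl27b, Ccl28, Cxcl1, Cxcl3, Cxcl5, Cxcl13, Cxcl15 and Xcl1. The Ccl21 and Ccl27 genes have near-identical copies, whose reads counting may drop or split, so their zeros are uncertain.

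Of relatives outside the naming rule, 9 of 15 were tested. Of these 3 were called higher, among them Pf4, whose direction was fixed by the filter, and 3 lower, near the 32.2% and 34.8% of all tested genes. Corrected for length and GC content, 5 were higher and 2 lower, where 3281 and 3880 of 10926 genes were. Ccrl2, a chemerin-binding receptor beside the Ccr genes that does not signal, had 2.33 and 3.55 scaled CPM in CuNZ@Gel against 8.40 and 8.64 in Gel (log2 change -1.29, adjusted p = 1.41e-06). Pf4, the platelet chemokine Cxcl4, had 1.07 and 1.14 scaled CPM in CuNZ@Gel and was listed at 0 and at 0.0777 in Gel (log2 change 1.02, adjusted p = 4.07e-04), and passed the filter only through CuNZ@Gel. The cytokine Mif and its receptor Cd74 fell by 0.44 and 0.28 (adjusted p = 4.56e-06 and 3.71e-04). Once corrected for length and GC content both changed sign and neither passed, at 0.07 and 0.04, and with total reads only Mif was at -0.25 and Cd74, at -0.09, did not pass.

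Of 31 tested transducers of the chemokine receptor signal, 12 were higher and 11 lower, shares near the 32.2% and 34.8% of all tested genes. With libraries scaled by total reads only they numbered 19 and 7, where 43.3% and 24.8% of all genes were called. Rgs2 and Rgs19, which shut off G protein signals, fell by 1.00 and 0.64 (limma adjusted p = 3.14e-11 and 5.95e-07), and Rgs19 was at -0.40 when corrected for length and GC content. Of the kinases that desensitize receptors, Grk6 fell by 0.75 and Grk5 rose by 1.11 (adjusted p = 4.40e-07 and 4.70e-07). Of 5 tested proteases that cut or shed chemokines, 3 were called higher and none lower, against 32.2% and 34.8% of all tested genes. The count includes Mmp12, whose direction was fixed by the filter. Adam17, a sheddase of membrane proteins, had 293 and 290 scaled CPM in CuNZ@Gel against 181 and 188 in Gel (log2 change 0.66, adjusted p = 5.51e-09). Mmp12, the macrophage elastase, which trims CC chemokines, had 3.09 and 2.79 scaled CPM in CuNZ@Gel and 0.145 and 0 in Gel (log2 change 1.88, adjusted p = 9.38e-08), and passed the filter only through CuNZ@Gel. Ctsk, the collagen-degrading cathepsin K, rose by 0.22 (adjusted p = 0.00216), or 0.41 with libraries scaled by total reads only. Once corrected for length and GC content 4 proteases were higher and 1, Adam10, was lower (-0.25). In that setting 3281 of 10926 genes were called higher and 3880 lower.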

How the data were processed

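Per the labels' protocols, libraries from RAW264.7 cells were prepared using a CORALL RNA-seq V2 kit. The submitters' processing notes name STAR, Salmon, fastp and GATK, and the build GRCm39. Their versions and roles, the annotation, strand use, treatment of molecular identifiers and normalization: not given in the sources used here. The deposited files hold 1 log2 value per symbol and library, to 3 decimals. From the values, each is log2(x + 1), x being CPM divided by 1 factor per library (0.936 to 1.07). Values up to 1 scaled CPM were multiples of a smallest step, to within 0.02 reads, in 92.6% to 93.5% of cases, which gave reads and totals. Reads of overlapping or antisense genes cannot be told apart where strand use is unknown.

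The planned design held: limma 3.58.1 in R 4.3.3, with a variance trend, on the deposited log2 values (pseudocount 1), group alone, all 4 libraries, genes reaching 1 scaled CPM in 2 or more libraries, Benjamini-Hochberg threshold 0.05. Log2 changes on this scale understate the change of low genes. The procedure was tested on simulated data in which few genes changed, none of them low. That test therefore does not cover low members or a comparison in which most genes are called. No 2 libraries agreed within sampling noise: chi-square per gene was 3.67 and 4.33 within groups and 125 to 152 between. Named were members with more than 3 reads in a library (the rest listed) and, from each related list, up to 4 called genes with the smallest p plus exceptions in direction, and promoters of the members with the largest change each way. Genes, lists and tests were chosen with earlier results of these data known. Transcript length and GC content came from GENCODE vM21 (GRCm38; 94.3% of tested genes), without its coordinates. Alternatives were 3 other scalings, limma-voom, 2 other filters, a pseudocount of 0.1, a minimum fold of 1.5, each library left out, the replicate number as a block and a length and GC correction. Values of 1 member and of 1 marker list are not reported here.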

Additional observations from a re-analysis of the deposited data

How the results depend on the processing

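In all 16 alternatives run, Ccl2, Ccl3, Ccl4, Ccl9, Ccr1 and Cxcr3 kept their direction and their call. With the filter at 5 scaled CPM, however, Ccl2, Ccr1, Ccr2 and Cxcr3 entered only through CuNZ@Gel. Their direction in that setting was therefore fixed and is no support. Of the values of tested members under an alternative, 233 kept their side of the threshold, 18 lost the call and 2 gained it. Ccl5, never called, changed sign in 3 alternatives, which are counted among the 233. Members called lower numbered 1 with total reads only and 2 without the filter, against 4. Against a minimum fold of 1.5, 6 members were higher and 0 lower, and over all genes 1015 and 940; the members still called were Ccl2, Ccl3, Ccl4, Ccl9, Ccr1 and Cxcr3. With 1 library left out, members called higher numbered 10 in each fit and lower 2 to 4, and over all genes 3096 to 3411 and 3419 to 3653. In that set Cxcl16 ranged from -0.42 to -0.20. Same-numbered libraries of the groups deviated with r = -0.116 over 11588 genes, which gave no sign that the numbers pair them. A single value from 2 libraries a group cannot exclude pairing. With the replicate number as a block 7489 genes were called, against 7770, and 10 members were higher and 4 lower. With the pairing crossed, an alternative chosen after seeing the data, 8370 genes were called. The log2 change of tested genes correlated across genes with log2 transcript length (Pearson r = 0.297, 10926 genes, which are not independent replicates). Corrected for length and GC content, with or without the replicate block, 11 members were higher and 4 lower. Over all 10926 genes 3281 were higher and 3880 lower without the block, and 3204 and 3829 with it. Depth limits what can be said of members with under about 10 reads, and 2 libraries a group limit every estimate of spread.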

Other observations

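Of 19 tested NF-kB target genes on a list without chemokines, 7 were higher and 7 lower, where 32.2% and 34.8% of all tested genes were. The higher ones include Il1b, which passed the filter only through CuNZ@Gel. The list's median log2 change was -0.14, or 0.04 with libraries scaled by total reads only. Ptgs2, the inducible cyclooxygenase, had 27.7 and 25.4 scaled CPM in CuNZ@Gel against 7.68 and 8.02 in Gel (log2 change 1.64, limma adjusted p = 1.87e-10), and Icam1, an adhesion molecule, rose by 0.71 (adjusted p = 4.79e-08). Cd83, an activation marker, had 35.2 and 30.8 scaled CPM in CuNZ@Gel and 168 in each Gel library (log2 change -2.32, adjusted p = 5.57e-16), and the AP-1 subunit Junb fell by 0.79 (adjusted p = 1.27e-08; -0.42 when corrected for length and GC content).

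Many chemokine mRNAs carry AU-rich elements, through which their decay is regulated. A list of 11 tested regulators of mRNA decay was not split into those that hasten and those that slow it. Of these genes 2 rose and 6 fell (median -0.34), where 32.2% of all tested genes were higher and 34.8% lower. Corrected for length and GC content, 1 was higher and 8 lower, where 3281 and 3880 of 10926 genes were. Zfp36l1, a decay factor of the tristetraprolin family, had 40.2 and 39.0 scaled CPM in CuNZ@Gel against 140 and 139 in Gel (log2 change -1.79, limma adjusted p = 1.11e-14). Zfp36, tristetraprolin itself, fell by 0.75, the RNA-binding Hnrnpd by 0.89 and the kinase gene Mapkapk2 by 0.59 (adjusted p = 6.65e-09, 6.04e-11 and 3.37e-08). The genes that rose were Rc3h1, which encodes the decay factor Roquin-1 (0.72, adjusted p = 3.70e-07), and Mapk14, the kinase p38 alpha (0.33, adjusted p = 3.92e-04, or 0.52 with total reads only). Rc3h1 no longer passed once corrected for length and GC content (0.17, adjusted p = 0.0535). The part of these genes in the chemokine levels was not tested.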
